A study of Mus musculus with 4 samples.

Results

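The 9 brain blood vessel genes described here were read on 4 arrays of mouse dorsal raphe nucleus RNA, namely Flt1, Kdr, Tek, Pecam1, Cldn5, Ly6c1 and Slco1c1 of endothelial cells and Pdgfrb and Vtn of pericytes. They were chosen with earlier results of these data known and found by gene symbol in the array's probe table. They are 9 of 16383 genes measured, each with 1 probe. The table names 8 of them directly and gives Ly6c1 under its older symbol Ly6c, whose near-identical neighbour Ly6c2 the probe may not tell apart. A single RNA pool from 5 male mice (C57BL/6J background, 10 weeks old) went onto each array. The control group was WT mice that did not swim. The stressed groups were WT mice, dopamine D2 receptor knockouts (D2R-KO) and knockouts of its long form (D2LR-KO), all of which swam for 6 min on each of 4 days, with the nucleus dissected 12 h after the last swim. There was 1 array per group and no knockout group without stress, so stress and genotype change together where a knockout is set against the control. Values therefore stand without replicate error or tests, and 4 arrays set the limit of precision.

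Brain capillaries are tubes of endothelial cells joined by tight junctions, wrapped by pericytes that lie in the same basement membrane. This wall forms the blood-brain barrier, which many nutrients and hormones cross by dedicated transporters. Vascular endothelial growth factor acts on endothelial cells through the receptors encoded by Flt1 and Kdr, angiopoietins act through the Tek receptor, and platelet-derived growth factor from endothelium recruits pericytes through the receptor encoded by Pdgfrb. The raphe is a nucleus of the brainstem midline that holds serotonin neurons, and its tissue contains vessels like the rest of the brain.

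The sequences before the transcription starts are shown for Flt1, Ly6c1 and Vtn, the genes with the largest normalized log2 differences in stressed WT, and for Kdr, the other receptor for vascular endothelial growth factor. Each is the 250 bases before a start, read 5′ to 3′ on the strand of the gene, from RefSeq on GRCm38.p6. Capitals mark AGGAAG and CCGGAA, letters of the core bound by ETS factors, a family active in endothelial cells, or their reverse complements. For Ly6c1 the second of 2 listed starts is shown, and neighbouring matches there overlap.
Flt1 (chr5:147726012-147726261, minus strand): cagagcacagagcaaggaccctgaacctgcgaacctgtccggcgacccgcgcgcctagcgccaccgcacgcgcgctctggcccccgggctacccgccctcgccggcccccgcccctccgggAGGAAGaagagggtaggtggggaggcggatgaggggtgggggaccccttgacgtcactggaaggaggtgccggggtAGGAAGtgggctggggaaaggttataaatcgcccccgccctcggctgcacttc
Ly6c1 (chr15:75048664-75048913, minus strand): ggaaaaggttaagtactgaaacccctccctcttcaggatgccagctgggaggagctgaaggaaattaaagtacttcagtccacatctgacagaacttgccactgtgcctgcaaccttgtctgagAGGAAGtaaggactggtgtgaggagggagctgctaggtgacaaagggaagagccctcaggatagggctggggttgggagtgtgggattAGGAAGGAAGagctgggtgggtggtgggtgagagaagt
Vtn (chr11:78498870-78499119, plus strand): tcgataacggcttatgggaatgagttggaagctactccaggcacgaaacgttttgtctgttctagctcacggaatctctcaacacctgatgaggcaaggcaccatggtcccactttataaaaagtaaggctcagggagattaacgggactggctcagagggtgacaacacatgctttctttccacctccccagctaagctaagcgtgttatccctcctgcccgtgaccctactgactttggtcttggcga
Kdr (chr5:75978456-75978705, minus strand): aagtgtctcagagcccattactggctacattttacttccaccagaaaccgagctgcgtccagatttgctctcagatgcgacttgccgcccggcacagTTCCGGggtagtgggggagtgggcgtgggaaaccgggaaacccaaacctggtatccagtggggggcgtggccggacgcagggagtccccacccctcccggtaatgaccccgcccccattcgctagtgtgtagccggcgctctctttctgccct
AGGAAG or its complement stood in 3 of the 8 windows of the 7 members used, those of Flt1, Ly6c1 and Slco1c1, and in 29.5% of 32851 windows of all genes. Flt1 had 2 matches and the shown Ly6c1 window 3, and the other Ly6c1 start had 0. CCGGAA stood in 1 of the 8 windows, that of Kdr, and in 12.0% of all windows. The GATA core AGATAA, searched on both strands like the others, was in 0 of the 8 and in 9.99% of all windows. The windows of Vtn, Cldn5 and Tek held none of these letters, Pecam1 had no entry, and the window of Pdgfrb was not used here. A match describes the letters and is no evidence of binding.

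All 9 genes were above the detection limit on all 4 arrays, the limit being 2 SD over the mean of spots without probe. Between 91.0% and 91.6% of gene probe spots passed it per array. Of other endothelial markers, Cdh5, the cadherin of endothelial contacts, had deposited intensities of only 0.9 to 2.0 over the arrays and the sialomucin Emcn 2.4 to 4.0, both detected on all 4. Levels are given below as the authors' deposited intensity, a linear brightness with an array median of 25, and differences as log2 differences of the normalized signal after an offset of 50, which understates the differences of dim genes. The stressed WT array stood apart from the others over all genes, with r = 0.954 to 0.962 against them over 14704 genes and r = 0.990 to 0.994 among the other 3. The tissue was labelled dorsal raphe nucleus, and all 7 serotonergic genes with a probe were detected on all 4 arrays, with summed deposited intensities of 2574.8, 2140.3, 3673.8 and 3863.4 in the order non-stressed WT, stressed WT, D2R-KO, D2LR-KO. Their median log2 difference between the WT arrays was -0.04. Tph2, which encodes the serotonin-making enzyme of neurons, was the 1 gene past 1.5-fold there, at -0.63, and turned to 0.08 when the brightness around each spot was taken as its local background. In the array order of the sums, Tph2 had deposited intensities of 31.4, 10.7, 264.6 and 151.5 and Slc6a4 had 11.6, 6.8, 89.6 and 43.5. Ddc, the largest part of each sum, had 1562.6, 1119, 1735.3 and 2253.8. Against non-stressed WT, 4 of the 7 genes were at least 1.5-fold higher in D2R-KO and 3 in D2LR-KO, with 0 lower in both. The part of this difference in the values of the 9 genes was not tested. Repeated control spots differed between arrays with an SD of 0.0966 to 0.227 in log2, which covers spots on an array and neither mice nor labelling.

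**Figure D1:**
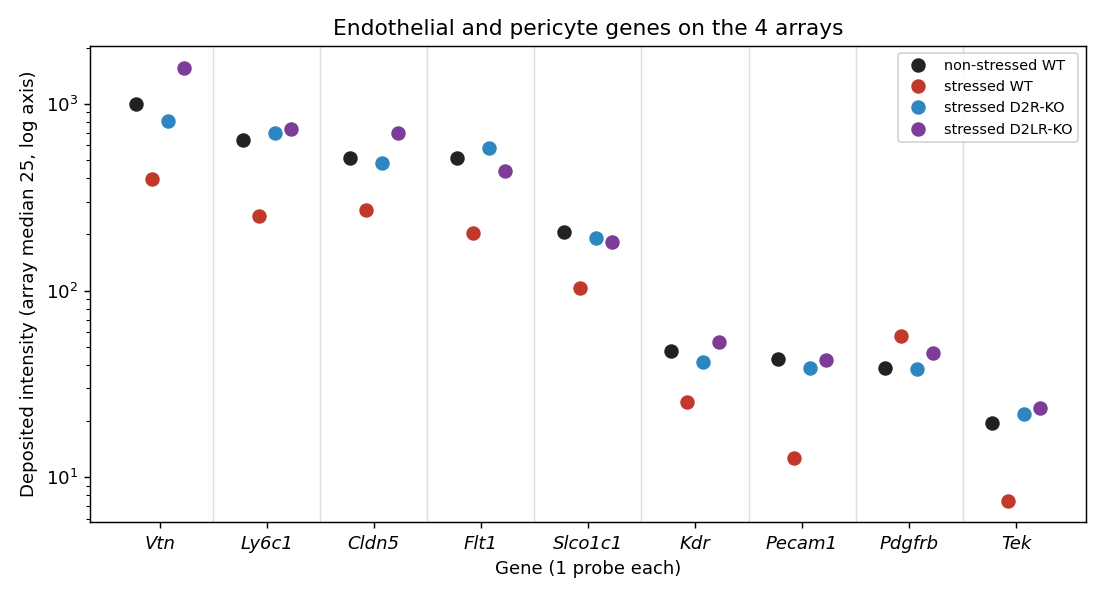
Deposited intensity (log axis) of the 9 genes on the x axis, 1 point per array, coloured by group. The stressed WT point is the lowest for 8 genes and the highest for Pdgfrb, which spans 37.8 to 57.4.

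The endothelial receptors were lowest in stressed WT. Flt1, the receptor that binds vascular endothelial growth factor tightly and also exists as a soluble decoy, had a deposited intensity of 511.2 on the non-stressed WT array, 203.6 on the stressed WT array, 583.8 for D2R-KO and 435.5 for D2LR-KO. The stressed WT value lay apart, and the other 3 spanned 0.26 in log2. Kdr, the main signalling receptor for the same factor, had 47.7, 25.2, 41.2 and 53.3 in the same order of arrays. Stressed WT was again lowest, and the other 3 again spanned 0.26. Tek, the angiopoietin receptor that keeps vessels quiescent, had 19.6, 7.5, 21.8 and 23.6. Its stressed WT spot was 1.26 times the detection limit, and the other 3 arrays were within 0.12 of each other.

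Genes of the junctions and the cell surface had the same order at its low end. Cldn5, the main claudin of the tight junctions at the blood-brain barrier, had 512.2 and 269.9 on the non-stressed and stressed WT arrays, 484.1 for D2R-KO and 696.0 for D2LR-KO. Here the D2LR-KO array also stood off, on the high side. Pecam1, an adhesion molecule at endothelial contacts that platelets and leukocytes carry too, had 43.0, 12.7, 38.7 and 42.6. Its highest and lowest deposited intensities differed 3.39-fold, and the 3 arrays other than stressed WT spanned 0.10 in log2. Ly6c1, a surface protein of endothelium and of some monocytes, had 637.4, 250.7, 698.9 and 731.4, with the 3 arrays other than stressed WT spanning 0.19. Slco1c1, a thyroxine transporter of barrier endothelium, had 204.8, 102.8, 191.6 and 183.2, and those 3 arrays again spanned 0.19.

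The pericyte genes did not share 1 pattern. Vtn, which encodes the matrix protein vitronectin and is made by brain pericytes, had 1001.4 and 396.5 on the non-stressed and stressed WT arrays, 811.5 for D2R-KO and 1565.6 for D2LR-KO. Its log2 range over the 4 arrays was 1.51, the widest among the 9, and 1.04 without stressed WT. Pdgfrb, the growth factor receptor used to mark pericytes, had 38.7, 57.4, 37.8 and 46.3. It was highest in stressed WT, and its range of 0.48 was the narrowest among the 9.

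Thus 8 of the 9 genes were lowest on the stressed WT array, on which 38.5% of the 14704 genes detected on all arrays had their lowest value and 41.0% their highest. The median range over the 4 arrays was 0.81 in log2 for the 9 genes and 0.34 for all genes. Apart from Vtn and Cldn5, the genes spanned 0.10 to 0.26 over the arrays other than stressed WT, the order of the spread of repeated control spots, and the order of those 3 arrays is not read further. Since this RNA came from whole tissue, fewer vessel cells in a pool and less RNA per cell cannot be told apart. With 1 array per group, neither can be told apart from an effect of the stressed WT array, its RNA or its labelling.

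The comparison of the WT arrays concerns forced swimming within 1 genotype. In stressed WT, 5 of the 9 genes were at least 1.5-fold lower and 0 at least 1.5-fold higher, against 8.11% and 7.28% of 15643 genes (16.5% and 2.69% when the arrays were scaled to a common median, with 6 of the 9 lower). Ly6c1 was lower by 1.98-fold (log2 difference -0.99), Flt1 by 1.94-fold, Vtn by 1.93-fold, Pecam1 by 1.75-fold and Slco1c1 by 1.58-fold. Cldn5 at -0.57, Kdr at -0.49 and Tek at -0.45 lay below 0 and short of the 1.5-fold limit of 0.58. Pdgfrb lay at 0.45. The median of the 9 was -0.66, against 0.00 over all genes.

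In the authors' deposited values, without the offset added here, non-stressed WT exceeded stressed WT by 1.89-fold to 3.39-fold for the 8 genes below 0, with Pecam1 and Tek (2.61-fold) ahead of Ly6c1 (2.54-fold). The brightness around the spots differed as well, with 530.3 around Flt1 in non-stressed WT and 184.7 in stressed WT, and 127.5 and 53.2 around Kdr. Over all gene spots, the log2 brightness of a spot and of its surroundings correlated at r = 0.876 to 0.958 per array. The local background is thus not independent of the spot's own signal. With the local background, 3 of the 9 were at least 1.5-fold lower and the median was -0.55. Flt1 was then at -1.30, Slco1c1 at -1.05 and Ly6c1 at -0.72, Vtn at -0.57 and Pecam1 at -0.55 were short of the limit, and Kdr turned from -0.49 to 0.31.

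**Figure D2:**
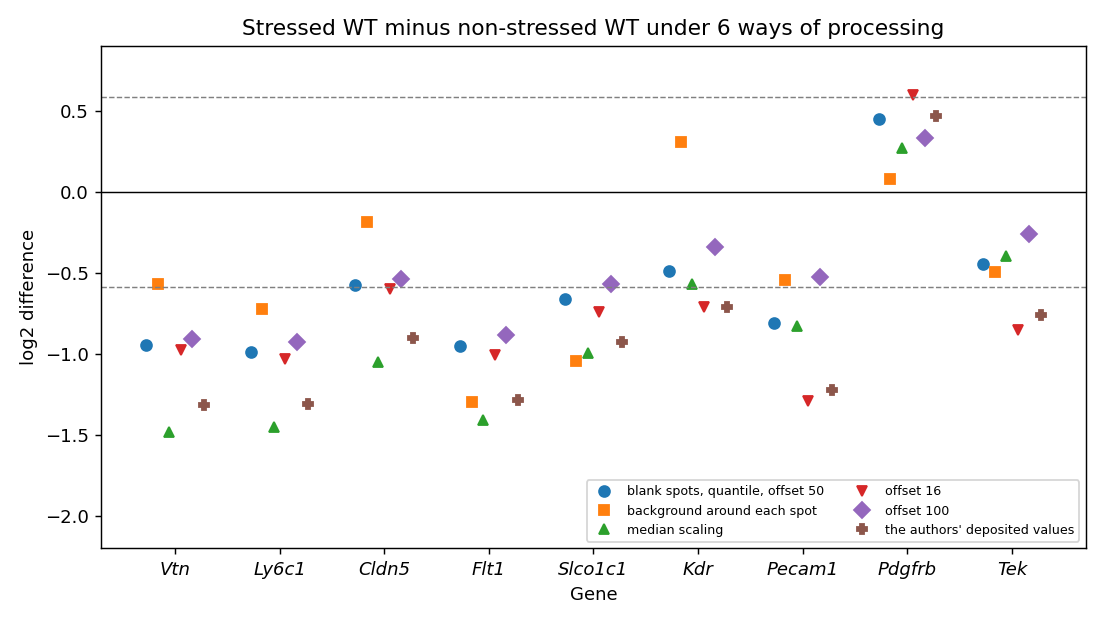
Log2 difference of stressed WT minus non-stressed WT for each gene on the x axis, 1 point per way of processing. Dashed lines mark 1.5-fold. Kdr turns to 0.31 with the local background, and the other 7 genes below 0 and Pdgfrb above 0 keep their side in the 6 settings drawn.

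The wider set of genes with roles in vessels, read from 7 lists that hold none of the 9, had a median near 0. The part of other cells of the tissue in the values of these lists was not tested. The 9 genes and the lists were chosen with earlier results known, so their contrast is a description only. Of 85 such genes compared, 8 were at least 1.5-fold lower and 7 higher in stressed WT, with a median of -0.03. Among the 37 in the brighter range (mean log2 signal of 6.85 or more), a split made after the values were seen, 7 were lower and 7 higher (median 0.02), and of all genes in that range 15.1% were lower and 13.1% higher. The 7 of the 9 genes in that brighter range had 4 lower and 0 higher. Among the 48 list genes in the dimmer range, where the offset understates differences, 1 was lower and 0 higher.

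By role, the endothelial junction and surface list had 1 of 13 lower and 2 higher (median -0.06). The junction adhesion gene F11r was at -0.88, and Mcam, an adhesion gene that pericytes and smooth muscle carry too, was at 1.06, with Podxl, a sialomucin of the luminal surface, at 0.65. These 3 were short of 1.5-fold with the local background, at -0.31, 0.17 and 0.33. Blood-brain barrier transporters had 3 of 13 lower and 2 higher (median 0.04, or -0.29 when scaled to a common median). Tfrc, the transferrin receptor, was at -1.11, the organic anion transporter Slco1a4 at -0.93 and Slc22a8 at -0.80. Tfrc and Slco1a4 turned to 1.29 and 0.46 with the local background. Slc7a5 and Slc3a2, the partners of the large neutral amino acid transporter, were at 0.78 and 0.71, and at 0.43 and 0.15 when scaled to a common median.

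The list of Wnt and norrin signalling, which sets up the barrier, had 3 of 11 lower and 0 higher (median -0.09). Tspan12, a co-receptor for norrin, was at -1.28 (-0.70 with the local background), with deposited intensities of 84.7 and 17.8, Ndp, which encodes norrin, was at -0.81, and Ctnnb1, beta-catenin, was at -0.96. The pericyte list had 1 of 12 lower, Higd1b at -0.62, and 3 higher (median -0.07). The higher genes were Ndufa4l2 at 1.78, Cox4i2 at 0.96 and Anpep, an aminopeptidase, at 0.71, while Rgs5, a widely used pericyte marker, lay at -0.14. Anpep and Higd1b were short of 1.5-fold with the local background, at 0.17 and -0.43. The growth factor and Notch list (15 genes), endothelial transcription factors (12) and basement membrane (9) had 0 members past 1.5-fold in either direction, with medians of -0.05, 0.03 and 0.18, the last turning to -0.04 with the local background.

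**Figure D3:**
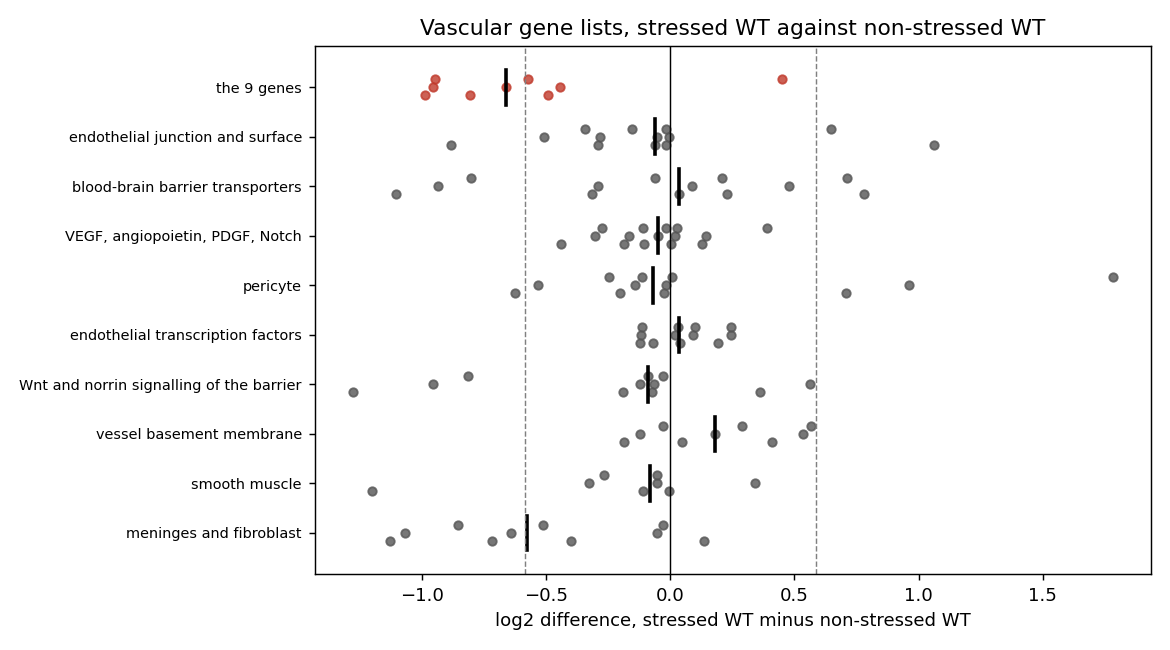
Log2 difference of stressed WT minus non-stressed WT, 1 point per gene, for the 9 genes and 9 lists (rows), with black bars at medians and dashed lines at 1.5-fold. The 9 genes have a median of -0.66 and the meninges and fibroblast list one of -0.58, while the other lists have medians between -0.09 and 0.18.

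Markers of other cell types were read in the same comparison. Of the meninges and fibroblast list, 5 of 10 were lower and 0 higher (median -0.58), with its summed deposited intensity at 1457.0 in non-stressed and 819.8 in stressed WT. Ogn was at -1.13, Slc6a13 at -1.07 and Igf2 at -0.86, and with the local background Slc6a13 was at -0.40 and Igf2 turned to 1.48. The smooth muscle list had 1 of 8 lower, Tagln at -1.20 (median -0.08), with sums of 488.7 and 316.9. The choroid plexus list had 5 of 8 lower (median -0.89), with sums of 13184.9 and 5863.5. Astrocyte genes had 3 of 9 lower, Glul at -2.52, Gjb6 at -1.48 and Gja1 at -1.08, and 0 higher (median -0.27). The astrocyte sums were 17059.5 and 14756.0, of which Aldoc alone held 11698.4 and 12513.6. Microglia and macrophage genes had 0 of 9 past 1.5-fold (median -0.24, sums of 1619.1 and 1073.6), with the macrophage gene Mrc1 at -0.58. The blood cell list had 4 genes compared, 0 past 1.5-fold and a median of -0.19, with sums of 109.6 and 85.8. The oligodendrocyte list went the other way, with 2 of 6 higher, Mag at 1.15 and Opalin at 1.01, and 1 lower, Aspa at -0.67 (median 0.42, or -0.09 when scaled to a common median), and sums of 15612.7 and 15484.5. Of the neuron list 1 of 7 was higher, Nefl at 0.60, and 2 lower, Slc17a6 at -2.14 and Snap25 at -1.01 (median -0.21), with sums of 14216.1 and 10145.3. The astrocyte, smooth muscle and neuron medians turned to 0.01, 0.01 and 0.42 with the local background. Their part in the result was not tested.

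Stressed D2R-KO against non-stressed WT gave smaller differences in the 9 genes. Of the 9, 0 were past 1.5-fold in either direction, against 0.577% of 15607 genes higher and 1.48% lower, and the median was -0.10. Vtn was lowest at -0.47, with Cldn5 at -0.23, Slco1c1 at -0.19 and Kdr at -0.14. Flt1 at 0.02, Tek at 0.06, Pdgfrb at -0.03 and Ly6c1 at -0.06 lay closer to 0. With the local background, Cldn5, Kdr and Ly6c1 turned to 0.49, 0.48 and 0.28, and Tek to -0.12. In the 85 other vessel genes, 2 were lower and 0 higher, namely the growth factor co-receptor Nrp1 at -0.89, with deposited intensities of 95.5 and 37.8, and Slc3a2 at -0.64, which was at -0.13 with the local background. The choroid plexus list had 5 of 8 lower and 0 higher (median -0.89), with Ttr at -8.09. Meninges and fibroblasts had 3 of 10 lower (median -0.23) and astrocytes 2 of 9 (median -0.20), each with 0 higher. Igf2, at -0.79, turned to 1.78 with the local background. Serotonergic genes had 4 of 7 higher and 0 lower (median 0.77). The lists of smooth muscle, microglia, oligodendrocytes, neurons and blood cells had 0 past 1.5-fold. The part of these cells was not tested.

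Stressed D2LR-KO against non-stressed WT also gave 0 of the 9 past 1.5-fold, against 0.745% of 15574 genes higher and 1.41% lower (0.347% and 2.90% when scaled to a common median), with a median of 0.12. Vtn at 0.57 (1.48-fold) and Cldn5 at 0.37 lay above 0, higher than the differences of 99.1% and 96.7% of all genes. In the deposited values Vtn was 1.56-fold and Cldn5 1.36-fold higher. Flt1 was at -0.24 and Slco1c1 at -0.15. Kdr went from 0.11 to 0.89 with the local background, past the limit. Among the 85 other vessel genes 3 were higher and 0 lower, namely Sox17, an arterial endothelial transcription factor, at 0.68, Ifitm1 at 0.60 and Ndufa4l2 at 0.59. Ifitm1 and Ndufa4l2 turned to -0.08 and -0.11 with the local background, and Sox17 was at 0.54, short of the limit. The meninges and fibroblast list had 4 of 10 genes higher here (median 0.44) and the smooth muscle list 4 of 8 (median 0.50), each with 0 lower. The choroid plexus list had 5 of 8 lower and 0 higher (median -0.83), with Ttr at -5.94. Serotonergic genes had 3 of 7 higher (median 0.58) and oligodendrocyte genes 3 of 6 (median 0.51), each with 0 lower. Astrocytes had 1 of 9 lower and 0 higher (median -0.01), and the microglia, neuron and blood cell lists had 0 past 1.5-fold. The part of these cells was not tested.

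**Figure D4:**
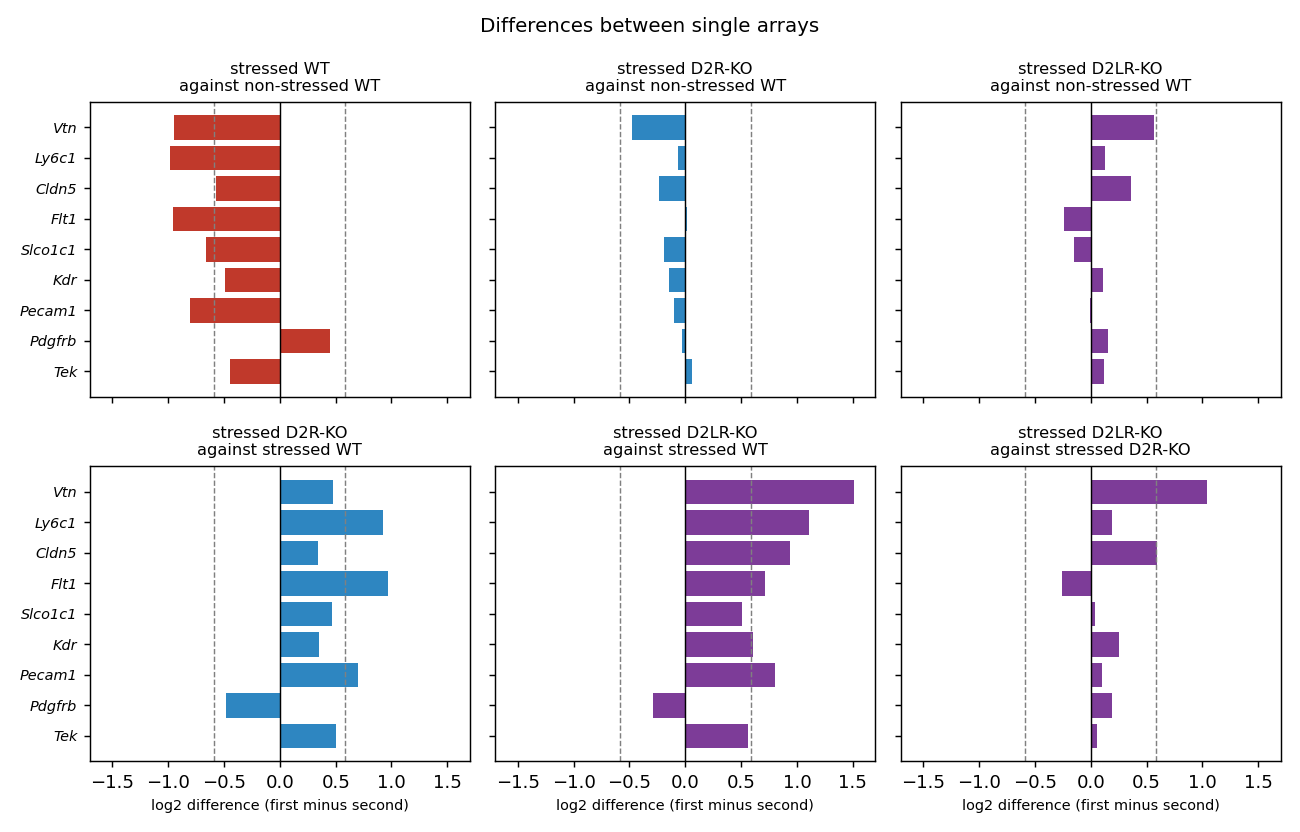
Log2 difference between 2 single arrays for the 9 genes (y axis), 1 panel per comparison, with dashed lines at 1.5-fold. Bars pass the line for 5 genes in stressed WT against non-stressed WT, for 0 in both knockouts against non-stressed WT, and for 3 and 6 in D2R-KO and D2LR-KO against stressed WT.

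Genotypes among stressed mice were compared by setting each knockout array against that of stressed WT. Both comparisons use the stressed WT array, as does that of stressed against non-stressed WT, so the low values there enter all of them. In D2R-KO, 3 of the 9 were at least 1.5-fold higher and 0 lower, against 9.31% and 8.64% of 15655 genes (18.5% and 3.76% when scaled to a common median, with 6 of the 9 higher). Flt1 was higher by 1.96-fold, Ly6c1 by 1.90-fold and Pecam1 by 1.63-fold, and the median was 0.47. Of the 7 genes in the brighter range, 2 were higher and 0 lower, against 17.5% and 15.8% of all genes in that range. In D2LR-KO, 6 were higher and 0 lower, against 8.72% and 8.2% of 15640 genes (12.0% and 4.35% when scaled to a common median), with a median of 0.71. Vtn was 2.86-fold, Ly6c1 2.16-fold, Cldn5 1.92-fold, Pecam1 1.75-fold, Flt1 1.64-fold and Kdr 1.52-fold higher. Pdgfrb went the other way in both, at -0.48 in D2R-KO and -0.29 in D2LR-KO. With the local background the 8 other genes stayed above 0 in both knockouts, from 0.18 for Kdr to 1.48 for Flt1 in D2R-KO and from 0.36 for Tek to 1.02 for Vtn in D2LR-KO. Pecam1 in D2R-KO at 0.45 and Cldn5 in D2LR-KO at 0.54 were then short of the limit, while Cldn5 at 0.68 and Slco1c1 at 0.73 passed it in D2R-KO.

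The other 85 vessel genes had 9 higher and 6 lower in D2R-KO against stressed WT (median 0.03), and 14 higher and 7 lower in D2LR-KO (median 0.08). Tspan12 was at 1.47 and 1.33, Tfrc at 1.53 and 1.32, Slco1a4 at 1.28 and 1.49 and F11r at 0.81 and 0.84 in the respective knockouts. Ndufa4l2 lay at -1.58 and -1.19, Cox4i2 at -1.20 and -1.03, Slc3a2 at -1.35 and -0.91 and Mcam at -1.15 and -0.85. With the local background Tspan12 was at 0.47 and 1.13, Tfrc at 0.75 and 0.29, Slco1a4 at 1.33 and 0.61, Cox4i2 at -0.68 and -0.82, and Mcam at -0.52 in both, so that Tspan12 in D2R-KO, Tfrc in D2LR-KO and Mcam in both were short of 1.5-fold.

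Markers of other cell types differed from stressed WT as well. In D2LR-KO the meninges and fibroblast list had 7 of 10 genes higher (median 1.07), with Ogn at 2.24 and Igf2 at 1.91, and the smooth muscle list 4 of 8 (median 0.64), with Tagln at 2.82 and Acta2 at 2.05, each with 0 lower. In D2R-KO 1 of the 10 meninges and fibroblast genes was higher and 1 lower (median 0.19) and the smooth muscle list 3 of 8 higher and 0 lower (median 0.21). Astrocyte genes had 3 of 9 higher in D2R-KO (median 0.20) and 2 in D2LR-KO (median 0.28), with 0 lower in both. Microglia and macrophage genes had 1 of 9 lower in D2R-KO (median 0.18) and 2 higher in D2LR-KO (median 0.30). Oligodendrocyte genes had 2 of 6 higher and 2 lower in D2R-KO (median -0.31) and 1 higher and 0 lower in D2LR-KO (median -0.15). Neuron genes had 2 of 7 higher and 0 lower (median 0.31), then 2 higher and 3 lower (median -0.09), in the respective knockouts. Serotonergic genes had 3 of 7 higher and 0 lower in both, with medians of 0.32 and 0.58. Of the choroid plexus list 1 of 8 was lower and 0 higher in both, and of 4 blood cell genes 0 and 1 were higher. The lower choroid plexus gene was Ttr, at -7.18 in D2R-KO and -5.02 in D2LR-KO. Its deposited intensities were 12884, 5720.2, 20.3 and 193.1 on the non-stressed WT, stressed WT, D2R-KO and D2LR-KO arrays. The part of these cell types in the values of the 9 genes was not tested.

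Stressed D2LR-KO against stressed D2R-KO asks how loss of the long form differs from loss of the whole receptor. Vtn was 2.06-fold higher in D2LR-KO (log2 difference 1.04, deposited 1565.6 against 811.5) and Cldn5 1.51-fold higher (0.60, 696.0 against 484.1). These 2 of the 9 stood against 0.666% of 15606 genes at least 1.5-fold higher, and 0 of the 9 were lower, against 0.333% (0.417% and 2.02% when scaled to a common median, with only Vtn still past the limit). The other 7 lay between -0.26, for Flt1, and 0.26, for Kdr, with a median of 0.19 over the 9. Vtn and Cldn5 were in the brighter range, where 1.09% of all genes were higher and 0.598% lower. With the local background Vtn remained at 0.66, Cldn5 turned to -0.13 and Flt1 went to -0.67. Of the 85 other vessel genes 2 were higher and 0 lower, Ifitm1 at 1.13 and Slc22a8 at 0.62.

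Vtn and Cldn5 were high in D2LR-KO together with markers of neighbouring cell types. The meninges and fibroblast list had 7 of 10 genes higher and 0 lower in D2LR-KO against D2R-KO (median 0.85), led by Igf2 at 1.84 (0.67 with the local background) and Ogn at 1.24. Its summed deposited intensity was 1457.0, 819.8, 1045.2 and 2582.8 on the non-stressed WT, stressed WT, D2R-KO and D2LR-KO arrays. The smooth muscle list had 4 of 8 higher, with Acta2 at 1.46, and sums of 488.7, 316.9, 720.6 and 1923.0. Of the other lists, choroid plexus and blood cells had 1 gene higher each, astrocytes, neurons and serotonergic neurons 1 lower each, and microglia and oligodendrocytes 0 past 1.5-fold. No gene of the meninges or smooth muscle list was below the detection limit on any array. The part of these cells in the Vtn and Cldn5 values was not tested.

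Genes with a pattern over the 4 arrays like that of the 9 were sought by distance to their median pattern. The median pattern, with each gene centred on its own mean, was 0.21 and -0.46 on the non-stressed and stressed WT arrays, 0.06 for D2R-KO and 0.22 for D2LR-KO. Among 7212 named genes detected on all 4 arrays in the brighter range, the smallest Euclidean distances in log2 were 0.025 for Asb8, 0.039 for Emc10, 0.046 for Aacs, 0.048 for Irf9 and 0.055 for Nampt. Within the 9, Pecam1 was nearest to that median at 0.13, followed by Slco1c1 at 0.14 and Kdr at 0.15, while Vtn at 0.70 and Pdgfrb at 0.91 were farthest. The 9 set that median themselves and were not held to the brighter range. All of them lay farther from it than the genes named above, so the pattern is not particular to the 9.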

How the data were processed

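RNA was extracted with a Qiagen kit, amplified and labelled with Cy5, per the labels' protocols. Per the file headers, 3 scans of differing gain were merged for an array by a rule not stated there. The files hold the median intensity of each spot and of its surroundings at 635 nm, per the file headers, with no background subtracted. The authors' deposited table holds linear intensity with an array median of 25, by steps that no source used here gives.

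Spot medians were corrected with limma 3.58.1 (nec, blank spots as negative controls, offset 50) in R 4.3.3, then taken to log2 and quantile normalized over the 4 arrays. Of 23473 probes 16631 had 1 gene symbol, and 3883 older symbols were updated through RefSeq names. The brightest of several probes was kept for 229 genes, and 9 probes marked unusable were left out. Detection was set by the blank spots, and genes detected on at least 1 of 2 arrays were compared (Python 3.11.15). With 1 array per group there is no test. The procedure was tested on simulated data in which only bright spots were changed, by more than the 1.5-fold limit. That test does not cover dim genes such as Tek or differences near the limit.

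The 9 genes and the 16 gene lists were chosen with earlier results of these data known. The text names all 9, and up to 3 genes per list and direction that were detected on both arrays and at least 1.5-fold apart, with genes of smaller difference given as values only. Rgs5, Mrc1, Cdh5 and Emcn were named after their values were seen. Alternatives covered background, scaling, offset, source of values, probes, detection filter and fold limit. Leaving the stressed WT array out of the normalization and the split by brightness were added after seeing the data.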

Additional observations from a re-analysis of the deposited data

How the results depend on the processing

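No paired analysis was possible because each group has 1 array. For the same reason leaving out a replicate was not possible, intervals are not given, and settings are read against the spread of repeated control spots. Weak signals limit Tek and Pecam1 most, whose stressed WT spots were 1.26 and 1.46 times the detection limit. With the background around each spot, the number of the 9 genes past 1.5-fold went from 5 to 3 in stressed WT against non-stressed WT and from 0 to 1 in D2LR-KO against non-stressed WT, and Cldn5 in D2LR-KO against D2R-KO reversed from 0.60 to -0.13. Directions of single genes were kept in 42 of 54 differences there, in 50 of 54 with scaling to a common median and in 52 of 54 with the deposited values. Scaling to a common median moved the median in stressed WT against non-stressed WT from -0.66 to -0.99, and in D2R-KO against stressed WT from 0.47 to 0.82 with the count from 3 to 6. In D2LR-KO against D2R-KO it moved the count from 2 to 1. With an offset of 16, stressed WT against non-stressed WT had a median of -0.85 and 9 genes past 1.5-fold (8 lower, and Pdgfrb higher), D2R-KO against stressed WT had 5, and the D2LR-KO median against stressed WT was 0.98. An offset of 100 left 3 in stressed WT against non-stressed WT and 1 in D2LR-KO against D2R-KO, since a larger offset shrinks differences by construction. The calls lost were Pecam1 and Slco1c1 in the former and Cldn5 in the latter. The authors' deposited values, as log2 after adding 10, gave medians of -0.93 in stressed WT against non-stressed WT and, against stressed WT, 0.86 (D2R-KO) and 1.06 (D2LR-KO). Their counts were 8 in stressed WT against non-stressed WT, 7 in D2R-KO against stressed WT, and 1 each when D2LR-KO was set against non-stressed WT and D2R-KO. A 2-fold limit, stricter by construction, left 0 genes in stressed WT against non-stressed WT and in D2R-KO against stressed WT, 2 in D2LR-KO against stressed WT and 1 in D2LR-KO against D2R-KO. Of 120 recomputed medians and counts, 97 stayed within the control-spot spread or within 1.5 times the count. That share overstates stability, because averaging probes and changing the detection filter could not move any of these values. Each of the 9 genes has 1 probe and was detected on all 4 arrays. The control-spot spread, being that of single spots, is a wide allowance for a median of 9 genes read from the same spots. The total also includes the alternative without the stressed WT array. Apart from the offset and the fold limit, the cause of these changes was not tested. Without the stressed WT array in the normalization, an alternative chosen after seeing the data, all 27 differences of single genes kept their direction.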
